A study of Mus musculus with 6 samples.

Results

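The genes described here are the class 3 semaphorins, *Sema3a* to *Sema3g*, and the neuropilins *Nrp1* and *Nrp2*, chosen by symbol as the mouse members of these families. They are 9 of the 55401 genes in the count table, and all 9 were among the 22318 genes tested, which were required to reach 2 counts in 5 or more of 6 libraries. Poly(A) RNA was sequenced in bulk from Schwann cells (SCs) cultured from dorsal root ganglia of adult mice, 3 WT and 3 *Plxnb1-/-* libraries, to ask which genes depend on the guidance receptor Plexin-B1. The mutant mice carry a gene-trap insertion in *Plxnb1*, and the study used both WT and heterozygous littermates as controls, while the labels of the libraries used here read WT. All cultures shared a medium with 2 µM forskolin, 10 nM neuregulin and 10% fetal bovine serum, were grown on laminin and poly-L-lysine, and were depleted of fibroblasts with an antibody to Thy1, with a stated purity of over 80% at passages 3 to 5. Total counts ran from 59252048 in WT replicate 2 to 77280964 in *Plxnb1-/-* replicate 1. Levels are given as CPM, counts scaled to a library of 1000000, and a count of 3 stands for 0.0383 to 0.0513 CPM. The labels do not tie the replicates to separate animals, so p-values measure the spread between these samples.

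Class 3 semaphorins are secreted guidance proteins that repel or attract growing axons, migrating glia and endothelial cells. Most bind a neuropilin, which has only a short cytoplasmic tail and passes the signal on through a plexin of the A family, with adhesion molecules of the L1 family as co-receptors. Sema3E is the exception that binds Plexin-D1 directly, and neuropilins also bind members of the VEGF family. In the peripheral nervous system Sema3A acting through neuropilin-1 is known for repelling sensory axons and Sema3F acting through neuropilin-2 for repelling sympathetic ones, whereas Plexin-B1 is a receptor of the class 4 semaphorin Sema4D.

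The targeted gene was read first. *Plxnb1* stood at 61.8, 45.4 and 96.4 CPM in WT replicates 1 to 3 and at 13.1, 16.6 and 18.6 CPM in *Plxnb1-/-* replicates 1 to 3. Every mutant library lay below every WT library, as the labels say, with a log2 fold change of −2.08 ± 0.25 (SE, n = 3 per genotype) and an adjusted p of 0.0449 in edgeR's quasi-likelihood test with Benjamini-Hochberg adjustment. An antisense gene covers 2.68% of the exon bases of *Plxnb1*, and the side of the insertion from which the remaining counts came was not analysed here. From its RNA-seq tracks the paper reports that exons past the inserted cassette lost their expression in *Plxnb1-/-* SCs.

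WT replicate 2 stood apart from the other libraries. On the first principal component of log2 CPM, which held 30.0% of the variance, WT replicates 1 to 3 lay at −3.58, −47.4 and −7.52 and *Plxnb1-/-* replicates 1 to 3 at 10.3, 14.1 and 34.0. The genotypes were on opposite sides of 0, replicate 2 was at a distance from the rest of WT, and mutant replicate 3, by less, from the rest of its group. On the second component, with 20.8% of the variance, WT replicate 1 lay at 39.1 and the other libraries between −24.8 and 5.33. The 12 SC markers summed to 3223, 2761 and 3276 CPM in WT replicates 1 to 3 and to 3317, 3673 and 3736 CPM in *Plxnb1-/-* replicates 1 to 3. The 8 fibroblast markers summed to 5501, 7249 and 5934 CPM in WT and to 5136, 5413 and 5349 CPM in *Plxnb1-/-* SCs. WT replicate 2 thus had the lowest sum of SC markers and the highest sum of fibroblast markers, and on both sums the genotypes did not overlap. *Col3a1*, a fibrillar collagen gene, was the most abundant fibroblast marker and made up most of that sum. The other 7 fibroblast markers summed to 774, 1119 and 895 CPM in WT and to 797, 788 and 787 CPM in mutant SCs, and on this sum the genotypes overlapped.

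Fitted values were higher in *Plxnb1-/-* SCs for 11 of 12 SC markers, beside 11491 of all 22318 genes tested. They were lower for 7 of 8 fibroblast markers, beside 10827 of all genes. In either list edgeR called 0 genes, beside 0.0358% of all genes. DESeq2 also called 0, beside 2.18% of the genes given an adjusted p, and it gave none to *Dpt* and *Pi16*. In edgeR's quasi-likelihood test 9 SC and 3 fibroblast markers had an unadjusted p under 0.05, as had 13.7% of all genes. When WT replicate 2 was left out, 11 of 12 SC markers were fitted higher, but 5 of 8 fibroblast markers were fitted lower, and the median log2 fold change of the fibroblast list was −0.09 in place of −0.24. *Thy1*, the target of the depletion, stood at 429, 652 and 490 CPM in WT and at 410, 409 and 384 CPM in mutant SCs. No SC or fibroblast marker was at 0, and the ones with a group mean under 1 CPM were *Pou3f1* among SC markers and *Dpt* and *Pi16* among fibroblast markers. These marker values move with the genotype in the results below, and their part in those results was not tested. In bulk RNA, fewer cells of a type and less RNA per cell cannot be told apart.

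Markers of other cells that a ganglion holds were read in the same way. The 7 neuron markers summed to 149 to 164 CPM in WT and 165 to 187 CPM in *Plxnb1-/-* SCs, most of it from the tubulin gene *Tubb3*, with *Rbfox3* and *Snap25* under 1 CPM in both means. The 7 macrophage markers summed to 27.8 to 30.4 CPM in WT and 31.8 to 35.9 CPM in mutant SCs, led by *Csf1r*, with *Aif1* under 1 CPM. Both sums were higher in every mutant library than in every WT library, but without *Tubb3* the neuron sum overlapped. Fitted values were higher in mutant SCs for 7 of 7 neuron markers, with a median log2 fold change of 0.37, and for 7 of 7 macrophage markers, with a median of 0.25. The 7 endothelial markers, led by *Cdh5* and with *Tie1* and *Cldn5* under 1 CPM, summed to 67.6 to 89.0 CPM in WT and 71.0 to 76.5 CPM in mutant SCs. The 6 mural cell markers, led by *Pdgfrb*, summed to 696 to 844 CPM in WT and 718 to 733 CPM in mutant SCs. On these 2 sums the genotypes overlapped, but without *Cdh5* the endothelial sum was 15.9, 21.0 and 16.6 CPM in WT and 15.8, 15.0 and 14.8 CPM in mutant SCs, lower in every mutant library. Gene by gene, 6 of 7 endothelial markers were fitted lower, with a median log2 fold change of −0.33 (−0.19 without WT replicate 2), and 5 of 6 mural markers were fitted higher, with a median of 0.11, the exception being *Pdgfrb*. With WT replicate 2 left out, 4 of 6 mural markers were fitted higher, with a median of 0.04. The 5 satellite glia markers, led by *Kcnj10* and with *Slc1a3* under 1 CPM in WT, summed to 930 to 1059 CPM in WT and 1089 to 1156 CPM in mutant SCs. The 4 perineurial markers, led by *Tjp1*, summed to 430 to 439 CPM in WT and 461 to 501 CPM in mutant SCs. Fitted values were higher for 5 of 5 and 3 of 4 of these genes, with medians of 0.16 and 0.19, and for 4 of 5 and 3 of 4, with medians of 0.10 and 0.22, without WT replicate 2. The last 2 sums did not overlap between the genotypes, and each list held 1 gene called by DESeq2, named here after its value was seen, *Apoe* at an adjusted p of 0.0164 and *Itgb4* at an adjusted p of 0.0071. In edgeR's quasi-likelihood test their adjusted p were 0.270 and 0.266, and 0 genes of these 6 lists were called. DESeq2 called 2.18% of the genes given an adjusted p, and edgeR 0.0358% of all genes. *Rbfox3*, *Aif1*, *Tie1* and *Cldn5* were given no adjusted p by DESeq2. No marker of these 6 lists was at 0 in a group mean, and the part of these lists in the results was not tested. Bulk RNA does not tell whether SCs or other cells expressed these genes, so the sums are not counts of cells.

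In *Plxnb1-/-* SCs the level of some ligands lay above and that of others below WT. *Sema3b*, *Sema3g* and *Sema3c* were higher in all 3 *Plxnb1-/-* libraries than in any WT library, and *Sema3e*, *Sema3a* and *Nrp2* were lower. *Sema3d*, *Sema3f* and *Nrp1* overlapped between the genotypes. The fitted fold changes were small, from 0.77 of the WT level for *Sema3e* to 1.34 of it for *Sema3b*.

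How many of these differences pass a test depended on the tool. Calls needed an adjusted p under 0.05 together with an absolute log2 fold change over 0.25. By edgeR's quasi-likelihood test 0 of 9 members were called, where 8 of the 22318 genes tested were called (0.0358%), and 6 of 9 had an unadjusted p under 0.05, which 13.7% of all genes had. By DESeq2 3 of 9 members were called, *Sema3b*, *Sema3e* and *Sema3g*, where 335 of the 15393 genes given an adjusted p were called (2.18%). The same 3 members were called by edgeR when no filter on low counts was applied, a setting in which 296 of 31191 genes were called (0.949%). Groups that do not overlap were also common, with 3 of 9 members higher in *Plxnb1-/-* SCs beside 9.30% of all genes and 3 of 9 lower beside 10.4%. With WT replicate 2 left out, an alternative chosen after seeing the data, 7 of 9 members did not overlap, beside 25.9% of all genes, and *Sema3f* joined those that were lower. The median log2 fold change was −0.01 over the 9 members and 0.005 over all genes tested.

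Levels of different genes were compared as CPM per kb of exon, using the union of annotated exons. On this scale *Sema3b* was the most abundant member in WT SCs at 85.0 ± 5.16 CPM per kb (SD, n = 3), followed by *Sema3g* at 73.4 ± 13.7 and *Nrp1* at 32.1 ± 0.336. *Sema3f* at 13.3 ± 1.62, *Sema3c* at 9.77 ± 0.398, *Nrp2* at 7.03 ± 0.108 and *Sema3e* at 4.54 ± 0.364 CPM per kb formed a middle range. *Sema3a* at 0.832 ± 0.137 and *Sema3d* at 0.221 ± 0.0497 CPM per kb were the least abundant. The order was the same in *Plxnb1-/-* SCs. *Sema3b* and *Sema3g*, first and second, overlapped in both genotypes, *Sema3f* and *Sema3c* overlapped in mutant SCs, and all other neighbours in the order were apart. Per kb of the longest transcript in place of all exons, *Nrp1* passed *Sema3g* in WT SCs, at 86.2 against 73.4 CPM per kb.

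**Figure D1:**
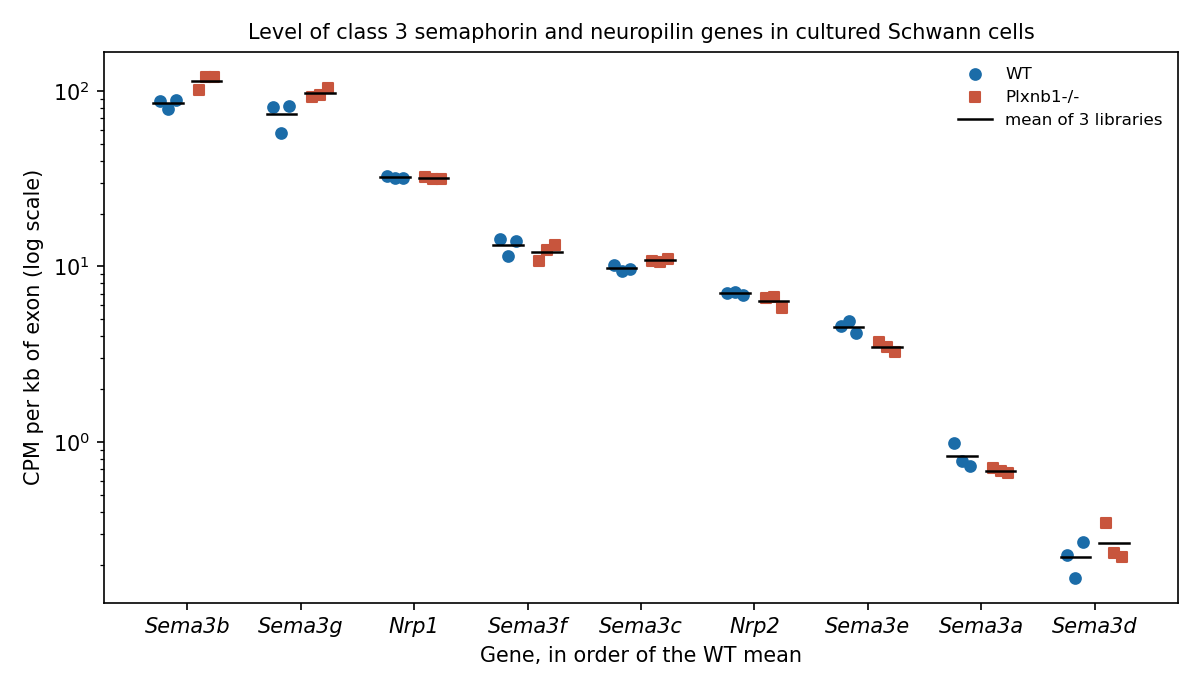
Level of the 9 genes in each library, as CPM per kb of exon on a logarithmic axis, with genes in order of their WT mean. Circles are the 3 WT libraries, squares the 3 *Plxnb1-/-* libraries and black lines the genotype means, which run from 0.221 for *Sema3d* to 85.0 for *Sema3b* in WT SCs, and the lowest *Sema3g* point is WT replicate 2.

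A pair of genes made up most of the ligand pool. Of the summed level of the 7 ligands per kb of exon, *Sema3b* made up 45.6% ± 2.41 in WT and 47.8% ± 1.78 in *Plxnb1-/-* SCs (SD, n = 3 each). *Sema3g* made up 39.0% ± 3.23 and 40.7% ± 1.47 of it. The sum itself was 187 ± 20.5 CPM per kb in WT and 238 ± 16.6 CPM per kb in mutant SCs. The share of *Sema3f* was 7.08% ± 0.131 in WT and 5.08% ± 0.186 in mutant SCs, and that of *Sema3e* was 2.46% ± 0.470 and 1.47% ± 0.205. Neither pair of shares overlapped between the genotypes, although the CPM of *Sema3f* did. The shares of *Sema3a*, 0.447% and 0.289%, did not overlap either. Shares add to a fixed total, and that of *Sema3c* was 5.26% in WT and 4.55% in mutant SCs although its CPM was higher in mutant SCs. A lower share is thus not a lower level.

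*Sema3b*, a secreted ligand that signals through neuropilins and is known as a candidate tumor suppressor, stood at 418, 378 and 422 CPM in WT replicates 1 to 3 and at 483, 576 and 574 CPM in *Plxnb1-/-* replicates 1 to 3. All 3 mutant libraries were above all 3 WT libraries, and mutant replicate 1 was the closest to WT. The log2 fold change was 0.42 ± 0.08 (SE, n = 3 per genotype; 95% interval 0.25 to 0.59), with an adjusted p of 0.199 in edgeR's quasi-likelihood test and of 1.0e-04 in DESeq2, each with Benjamini-Hochberg adjustment. Without WT replicate 2 the log2 fold change was 0.38 in edgeR and 0.37 in DESeq2, with adjusted p of 0.205 and 0.00025.

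*Sema3g*, a ligand of neuropilin-2 best known from the endothelium, stood at 366, 262 and 373 CPM in WT and at 420, 432 and 468 CPM in *Plxnb1-/-* SCs. All mutant libraries were above all WT ones, and WT replicate 2 lay far below the other WT libraries, with a coefficient of variation of 18.6% in WT and 5.76% in mutant SCs. Its log2 fold change was 0.40 ± 0.12 (SE, n = 3 per genotype; 95% interval 0.13 to 0.67), with an adjusted p of 0.283 in edgeR's quasi-likelihood test and of 0.0296 in DESeq2. Without WT replicate 2 it was 0.26 in edgeR and 0.253 in DESeq2, with adjusted p of 0.225 and 0.0032. The DESeq2 value was just over the cutoff of 0.25 for a call.

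*Sema3c*, a ligand with attractive as well as repulsive effects that is required for cardiac outflow tract development, stood at 72.8, 67.2 and 69.3 CPM in WT and at 76.9, 76.1 and 78.7 CPM in *Plxnb1-/-* SCs. The libraries of each genotype lay close together and the groups did not overlap. This gave a log2 fold change of 0.15 ± 0.04 (SE, n = 3 per genotype), with an adjusted p of 0.285 in edgeR's quasi-likelihood test and of 0.153 in DESeq2.

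*Sema3e*, the ligand of Plexin-D1, stood at 42.5, 45.3 and 38.6 CPM in WT and at 34.6, 32.3 and 30.2 CPM in *Plxnb1-/-* SCs. Every mutant library was below every WT library, and the highest value was that of WT replicate 2. On the log2 scale the difference was −0.38 ± 0.07 (SE, n = 3 per genotype; 95% interval −0.54 to −0.22), with an adjusted p of 0.228 in edgeR's quasi-likelihood test and of 0.0018 in DESeq2. Without WT replicate 2 it was −0.32 in both tools, with adjusted p of 0.310 in edgeR and 0.0112 in DESeq2.

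*Sema3a*, the founding collapse factor of sensory growth cones, stood at 13.7, 10.8 and 10.1 CPM in WT and at 9.80, 9.46 and 9.26 CPM in *Plxnb1-/-* SCs. The groups did not overlap, but WT replicates 2 and 3 lay nearer to the mutant libraries than to WT replicate 1. Fitted over all libraries, the log2 fold change was −0.28 ± 0.11 (SE, n = 3 per genotype), with an adjusted p of 0.328 in edgeR's quasi-likelihood test, and it was −0.13 without WT replicate 1.

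The remaining ligands overlapped. *Sema3d*, which guides axons and cells of the developing heart and vessels, stood at 1.95, 1.45 and 2.30 CPM in WT and at 2.97, 2.01 and 1.89 CPM in *Plxnb1-/-* SCs. Mutant replicate 1 was the highest library, and the log2 fold change of 0.26 ± 0.22 had the widest interval of the 9 genes, from −0.23 to 0.76, and an adjusted p of 0.621 in edgeR's quasi-likelihood test. With 1 library left out at a time it ran from 0.03 without mutant replicate 1 to 0.43 without WT replicate 3, and it was 0.11 without WT replicate 2. *Sema3f*, the neuropilin-2 ligand, stood at 74.5, 59.2 and 72.9 CPM in WT and at 55.7, 64.6 and 68.6 CPM in mutant SCs. WT replicate 2 was low among WT libraries and mutant replicate 1 low among mutant ones. The log2 fold change was −0.13 ± 0.10 with an adjusted p of 0.592 in edgeR's quasi-likelihood test, and −0.22 with an adjusted p of 0.452 without WT replicate 2. Over all 6 leave-outs it ran from that value to −0.05, without mutant replicate 1.

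Of the receptors, *Nrp1* hardly varied. *Nrp1*, the neuropilin that binds Sema3A and VEGF-A, stood at 318, 313 and 312 CPM in WT and at 317, 308 and 310 CPM in *Plxnb1-/-* SCs. The 6 values overlapped and lay within a narrow band, with a coefficient of variation of 1.05% in WT and 1.47% in mutant SCs. The log2 fold change was −0.01 with a 95% interval of −0.10 to 0.07 and an adjusted p of 0.917 in edgeR's quasi-likelihood test. *Nrp2*, the neuropilin that binds Sema3F, stood at 83.7, 84.1 and 81.8 CPM in WT and at 78.2, 79.4 and 68.8 CPM in mutant SCs. The groups did not overlap, and mutant replicate 3 was the lowest. The log2 fold change was −0.14 ± 0.06 (SE, n = 3 per genotype), with an adjusted p of 0.339 in edgeR's quasi-likelihood test, and −0.08 without mutant replicate 3.

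**Figure D2:**
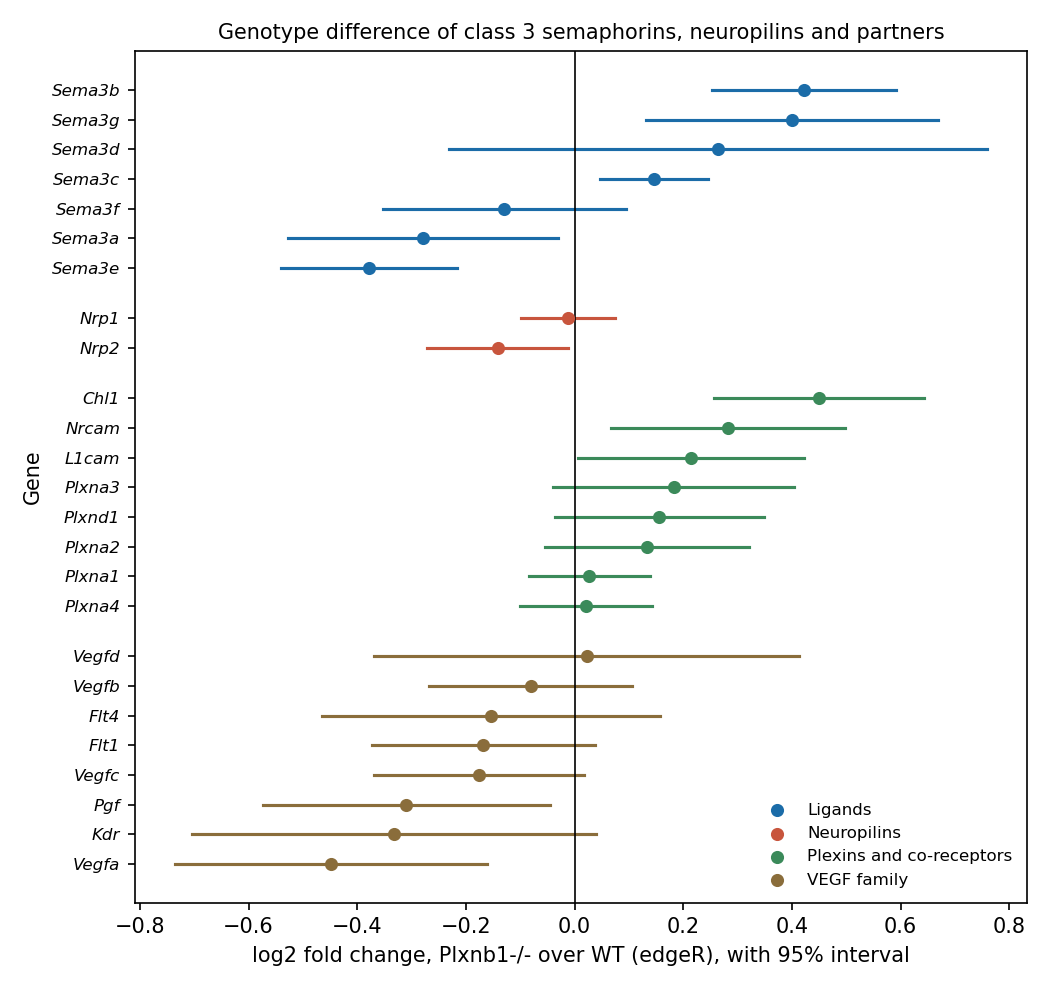
Log2 fold change of *Plxnb1-/-* over WT SCs by edgeR for the ligands, the neuropilins, their plexins and co-receptors, and the VEGF family. Points are estimates from 3 libraries per genotype, lines are 95% intervals and the vertical line marks no difference, and estimates run from −0.45 for *Vegfa* to 0.45 for *Chl1*.

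The signalling receptors and co-receptors through which these ligands act had fitted values above WT for 8 of 8 genes, beside 11491 of all 22318 tested. Their median log2 fold change was 0.17, beside 0.005 over all genes. *L1cam* is also 1 of the 12 SC markers, of which 11 were fitted higher, with a median of 0.19. By edgeR's quasi-likelihood test 0 of 8 were called, beside 0.0358% of all genes, and 3 had an unadjusted p under 0.05, beside 13.7%. By DESeq2 1 was called, *Chl1*, beside 2.18% of all genes given an adjusted p. *Chl1*, a member of the L1 family that joins neuropilin-1 in Sema3A responses, stood at 356, 284 and 326 CPM in WT and at 414, 427 and 479 CPM in *Plxnb1-/-* SCs. The groups did not overlap, with a log2 fold change of 0.45 ± 0.09 (SE, n = 3 per genotype) and an adjusted p of 0.228 in edgeR's quasi-likelihood test and of 0.00023 in DESeq2. Its relatives *Nrcam* and *L1cam*, adhesion molecules of axons and SCs, had log2 fold changes of 0.28 and 0.21, and of this pair only *Nrcam* was apart between the genotypes. These values were 0.17 and 0.11 without WT replicate 2.

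Among the plexins the log2 fold changes were 0.18 for *Plxna3*, 0.16 for *Plxnd1*, 0.13 for *Plxna2*, 0.03 for *Plxna1* and 0.02 for *Plxna4*, and the genotypes overlapped for each. *Plxnd1*, the Sema3E receptor, was the most abundant of the list per kb of exon, at 104 CPM per kb in WT and 115 CPM per kb in mutant SCs. WT replicate 2 was the lowest library for the sum of the list, at 1679 CPM beside 2083 and 2027 CPM in the other WT libraries and 2135 to 2342 CPM in mutant ones. Without it the plexins had log2 fold changes of −0.01 to 0.09, the median of the list was 0.07, 7 of 8 genes were fitted higher, and *Chl1* was again called by DESeq2, with a log2 fold change of 0.37 and an adjusted p of 0.00011.

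The VEGF ligands and receptors, which share the neuropilins, were fitted lower for 7 of 8 genes, with a median log2 fold change of −0.17. The endothelial markers, which share *Kdr* with this list, were fitted lower for 6 of 7 genes, with a median of −0.33, and their part in these values was not tested. Of the VEGF list 0 of 8 genes were called by edgeR's quasi-likelihood test, beside 0.0358% of all genes, and 2 had an unadjusted p under 0.05, beside 13.7%. DESeq2 called *Vegfa*, beside 2.18% of all genes given an adjusted p. *Vegfa*, the main growth factor of blood vessels, stood at 199, 247 and 194 CPM in WT and at 171, 172 and 127 CPM in *Plxnb1-/-* SCs. WT replicate 2 was high and mutant replicate 3 low, and the groups did not overlap. Its log2 fold change was −0.45 ± 0.13 (SE, n = 3 per genotype), with an adjusted p of 0.273 in edgeR's quasi-likelihood test and of 0.0197 in DESeq2. Without WT replicate 2 it was −0.33 and the DESeq2 call was lost, at an adjusted p of 0.597.

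For the other VEGF ligands the log2 fold changes were −0.31 for *Pgf*, whose groups did not overlap, −0.18 for *Vegfc*, −0.08 for *Vegfb* and 0.02 for *Vegfd*. Without WT replicate 2 these 4 values were −0.23, −0.22, −0.14 and −0.002. For the receptor tyrosine kinases the values over all libraries were −0.33 for *Kdr*, −0.17 for *Flt1* and −0.15 for *Flt4*. Without WT replicate 2 they were −0.19, −0.12 and −0.25, in another order. Per kb of exon *Vegfa* stood at 49.8 CPM per kb in WT SCs, far above *Kdr* at 0.373 and *Flt1* at 1.36 CPM per kb. *Nrp1*, which also binds VEGF-A, was nearer to the ligand, at 32.1 CPM per kb. Without WT replicate 2, 8 of 8 genes of the list were fitted lower, with a median of −0.20.

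The intracellular effectors of the pathway showed no common direction, with 11 of 22 fitted higher and 11 lower and a median log2 fold change of 0.002, and 10 and 12 with a median of −0.02 without WT replicate 2. By edgeR's quasi-likelihood test 0 of 22 were called, beside 0.0358% of all genes, and 5 had an unadjusted p under 0.05, beside 13.7%. DESeq2 called *Rnd1*, beside 2.18% of all genes given an adjusted p. *Rnd1*, which encodes a GTPase that binds plexins directly, stood at 2.75, 2.43 and 2.44 CPM in WT and at 1.52, 1.70 and 1.13 CPM in *Plxnb1-/-* SCs. The groups did not overlap, and this was the largest difference of the pathway lists, with a log2 fold change of −0.81 ± 0.16 (SE, n = 3 per genotype) and an adjusted p of 0.255 in edgeR's quasi-likelihood test and of 0.0061 in DESeq2. Without WT replicate 2 it was −0.84 in both tools, with an adjusted p of 0.0344 in DESeq2. Among the effectors the largest value in the other direction was 0.24 for *Dpysl2*, which encodes the collapsin response mediator CRMP2, with an adjusted p of 0.289 in edgeR's quasi-likelihood test, and it was 0.16 without WT replicate 2. The actin-severing gene *Cfl1* had the highest level per kb of exon, 277 CPM per kb in WT and 268 CPM per kb in mutant SCs.

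Of the 5 proteases that process class 3 semaphorins, 1 was fitted higher and 4 lower, with a median log2 fold change of −0.10. Either tool called 0, beside 0.0358% of all genes in edgeR and 2.18% of those given an adjusted p in DESeq2. In edgeR's quasi-likelihood test 1 had an unadjusted p under 0.05, beside 13.7% of all genes. Leaving out WT replicate 2 gave 2 higher and 3 lower, with a median of −0.02. *Furin*, the proprotein convertase that cleaves these ligands, stood at 44.2 CPM per kb of exon in WT and 41.3 CPM per kb in *Plxnb1-/-* SCs, and *Adamts1*, a secreted metalloprotease, at 40.1 and 43.9 CPM per kb. Per kb of exon, *Furin* had the higher mean of this pair in WT and *Adamts1* in mutant SCs. Other length scales were not compared for this pair. *Adamts1* had the largest positive log2 fold change, 0.13, and *Pcsk6* the largest negative one, −0.35. *Pcsk6* stood at 1.53, 2.72 and 1.55 CPM in WT and at 1.61, 1.75 and 1.15 CPM in mutant SCs. WT replicate 2 alone was high. Without it the log2 fold changes of *Pcsk6* and *Adamts1* were −0.03 and 0.05, and the largest negative one was −0.09, for *Furin*.

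The members fall at few places in the genome (GRCm38, GENCODE vM21). *Sema3d*, *Sema3a*, *Sema3e* and *Sema3c* lie within 5.35 Mb of chromosome 5, and of these *Sema3a* and *Sema3e* were lower and *Sema3c* higher in *Plxnb1-/-* SCs. *Sema3b* (chromosome 9, 107597674 to 107609229, minus strand) and *Sema3f* (chromosome 9, 107681500 to 107710475, minus strand) lie 1.49 and 1.38 Mb from the targeted gene *Plxnb1*, which is on the same chromosome. *Sema3g* is on chromosome 14, *Nrp1* on chromosome 8 and *Nrp2* on chromosome 1. In this annotation no exon of a ligand or of *Nrp2* overlaps an exon of another gene, and 0.818% of the exon bases of *Nrp1* are shared with a microRNA gene.

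The genes beside the chromosome 9 ligands did not share one direction. *Gnai2*, a G protein subunit gene 4.9 kb from *Sema3b*, stood at 605, 600 and 613 CPM in WT and at 653, 684 and 687 CPM in *Plxnb1-/-* SCs. The groups did not overlap, with a log2 fold change of 0.15 ± 0.04 (SE, n = 3 per genotype) and an adjusted p of 0.273 in edgeR's quasi-likelihood test and of 0.0458 in DESeq2, where the fold change was too small for a call. *Ifrd2*, 4.3 kb away on the other side, had a mean of 17.7 ± 1.04 CPM in WT and 15.5 ± 0.556 CPM in mutant SCs (SD, n = 3 each). Here the mutant libraries were all below the WT ones, with a log2 fold change of −0.19 ± 0.06. *Rbm5*, a splicing factor gene 29.9 kb from *Sema3f*, had a log2 fold change of 0.01 and overlapped. *Gnat1*, the rod transducin gene 1.8 kb on its other side, was near the counting floor, at 0.103 to 0.125 CPM in WT and 0 to 0.0511 CPM in mutant SCs. Whether the distance to *Plxnb1* bears on these values was not tested.

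*Sema3b*, *Sema3c* and *Sema3g* were grouped here because they were higher in every mutant library, and *Sema3e* was lower. Positive r within the group and negative r with *Sema3e* follow largely from that choice and are no separate result. As a description over 6 libraries that include the genotype difference, Pearson's r of log2 CPM was 0.88 between *Sema3b* and *Sema3g*, 0.89 between *Sema3b* and *Sema3c* and 0.91 between *Sema3c* and *Sema3g*. It was −0.97 between *Sema3b* and *Sema3e* and −0.91 between *Sema3g* and *Sema3e*. *Nrp2* went with *Sema3e*, at 0.85, while the largest r of *Sema3f* with another member was 0.41, with *Sema3a*.

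Among the 14992 genes with a mean of at least 1 CPM, the patterns most like *Sema3b* were those of *Cyp2j9*, a cytochrome P450 gene, and *Gm47602*, both at an r of 0.99 or more. Those most like *Sema3g* were *Itgb8*, an integrin subunit gene, and *Flrt3*, a gene of an adhesion protein that also binds guidance receptors. For *Sema3c* they were *Gm26920* and *Nsl1*, for *Sema3e* the pseudogene *AC121967.1* and *BC048403*, and for *Sema3a* *Nop16* and *Pdha1*. For *Sema3d* they were *E430024I08Rik* and *Naaladl2*, for *Sema3f* *Gm5881* and *Ddx28*, for *Nrp1* *Larp4* and *Gm3325*, and for *Nrp2* *Nfatc1* and *Pex5*. These genes are the highest of many correlations over 6 libraries and carry no test. *Itgb8* had a mean of 570 CPM in WT and of 707 CPM in mutant SCs, a log2 fold change of 0.31 with an adjusted p of 0.283 in edgeR's quasi-likelihood test.

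The 250 bases before the annotated start were read from a set of RefSeq promoters (GRCm38.p6). The set used here held 7 of 9 members, those other than *Sema3b* and *Sema3f*, which lie on the minus strand. They differed widely in base composition, from 40.8% G and C with 2 CpG for *Sema3a* to 78.4% with 39 CpG for *Sema3c*, beside medians of 52.4% and 6 over 32851 promoters. The motif ACAAAG, read by SOX factors and searched on both strands, was found in 2 of 7, *Sema3a* and *Sema3d*, and in 16.5% of all promoters. GGAATG, read by TEAD factors, was found in 0 of 7 and in 12.6% of all promoters, and TGANTCA, read by AP-1, in 0 of 7 and in 6.75%. The promoters of *Sema3a* and *Sema3e*, the ligands that were lower together, and of *Sema3g*, which was higher, are shown 5′ to 3′ with matches to ACAAAG or its reverse complement in capitals. They are chr5:13396534-13396783, chr5:14025026-14025275 and chr14:31217623-31217872, all on the plus strand. RefSeq and GENCODE starts can differ: the *Sema3a* window lies inside the GENCODE gene span and the *Sema3g* window reaches into it, and those of *Sema3c*, *Nrp1* and *Nrp2*, not shown, lie in it in whole or in part.
Sema3a: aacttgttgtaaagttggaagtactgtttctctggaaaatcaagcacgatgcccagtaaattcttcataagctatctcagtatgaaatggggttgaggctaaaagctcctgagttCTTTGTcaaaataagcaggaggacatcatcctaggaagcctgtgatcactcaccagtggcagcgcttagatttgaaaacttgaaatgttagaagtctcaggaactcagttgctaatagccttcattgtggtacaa
Sema3e: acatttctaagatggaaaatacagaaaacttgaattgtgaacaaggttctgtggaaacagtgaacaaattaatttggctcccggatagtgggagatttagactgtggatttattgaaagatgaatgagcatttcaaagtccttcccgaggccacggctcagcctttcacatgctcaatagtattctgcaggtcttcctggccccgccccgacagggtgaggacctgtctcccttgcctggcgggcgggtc
Sema3g: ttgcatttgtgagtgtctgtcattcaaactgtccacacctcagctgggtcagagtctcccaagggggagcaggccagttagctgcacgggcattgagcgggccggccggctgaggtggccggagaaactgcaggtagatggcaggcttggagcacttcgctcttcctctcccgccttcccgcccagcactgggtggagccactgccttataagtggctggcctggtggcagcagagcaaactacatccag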

How the data were processed

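Libraries were made from poly(A) RNA with a stranded kit. The authors trimmed the reads with Trim Galore 0.6.5, aligned them to mm10 with Bowtie2 2.4.1, removed duplicates with SAMtools 1.10 and deposited raw counts per gene from featureCounts. Whether counting used strand is not given in the sources used here. The deposited FPKM values were used only for an alternative, because they were scaled by the whole gene span.

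Groups were taken from the labels. CPM used TMM library sizes, and the genotype effect was fitted by edgeR's quasi-likelihood test (edgeR 4.0.16, R 4.3.3) on genes reaching 2 counts in 5 or more of 6 libraries, with Benjamini-Hochberg adjustment over 22318 genes. Calls needed an adjusted p under 0.05 and an absolute log2 fold change over 0.25. DESeq2 1.42.0 and limma 3.58.1, other normalizations and filters, a replicate block, and each library left out were the alternatives. SEs and 95% intervals come from the edgeR fit, and the fits were tested on counts simulated for this comparison over 21734 genes. There edgeR called 84 of 100 genes changed by 1 on the log2 scale, 68 of 100 changed by 0.5 and 15 of 21534 unchanged genes, and DESeq2 called 85, 72 and 32. The simulation set no library apart, as WT replicate 2 was, and changed only genes above a count minimum. In the data edgeR called 8 genes and DESeq2 335, so the simulated shares do not give the power of either test for the members. Symbols, positions and exon lengths came from GENCODE vM21, which matched 55141 of 55401 genes.

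The members, the pathway and marker lists were chosen with earlier results of these data known. The named genes were the members, *Plxnb1*, all plexins, co-receptors and VEGF genes, the extremes and the most abundant gene of the effector and protease lists, the neighbours of *Sema3b* and *Sema3f*, for each member the 2 genes of highest Pearson r, and the most abundant and the low genes of each marker list. *Thy1*, as the target of the fibroblast depletion, and *Apoe* and *Itgb4*, as DESeq2 calls, were named outside this rule after their values were seen. The most abundant SC marker is not reported here.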

Additional observations from a re-analysis of the deposited data

How the results depend on the processing

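The direction of each member's log2 fold change was kept in all 160 alternative values, and 151 of these stayed on the same side of the threshold. The other 9 were calls of *Sema3b*, *Sema3e* and *Sema3g*. Their log2 fold changes were 0.42, −0.38 and 0.40 with DESeq2 (335 genes and 3 members called) and 0.42, −0.38 and 0.40 with no filter on low counts (296 genes and 3 members called). With DESeq2 without WT replicate 2, a setting chosen after seeing the data, they were 0.37, −0.32 and 0.253 (165 genes and 3 members called). There *Sema3g* was just over the cutoff of 0.25. The cause of these differences between settings was not tested. Adjusted p over all alternatives ran from 1.0e-04 to 0.648 for *Sema3b*, 0.0018 to 0.666 for *Sema3e* and 0.0032 to 0.673 for *Sema3g*. Beside 8 genes called, limma on log2(FPKM + 0.1) called 3, limma on log2(FPKM + 0.01) called 3, and leaving out chromosome 9 left 2, each with 0 members. With the pseudocount of 0.1 on FPKM, the log2 fold changes of *Sema3a*, *Sema3d* and *Sema3e* were −0.05, 0.03 and −0.22, beside −0.28, 0.26 and −0.38 in edgeR. Without chromosome 9 *Sema3b* and *Sema3f* have no value. Leaving out 1 library at a time gave 4 to 25 genes called and 0 members, and the 25 were without WT replicate 2. Same-numbered libraries did not deviate together (r of −0.022, 0.008 and 0.065), and a replicate block called 5 genes and 0 members. Per kb of the longest transcript, 2 members changed place in the WT order. With 3 libraries per genotype, the SEs of the members' log2 fold changes were 0.04 to 0.22.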
